A study of Sus scrofa with 75 samples.

Results

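The liver libraries of a pig transcriptome series were compared with those of heart, kidney, lung and spleen. They were chosen by tissue among the deposited columns whose names match a sample label. Those that end in liver were set against those that end in the names of the 4 other organs. This gave 8 liver libraries among 40 short-read libraries, and 2 among 10 long-read libraries, out of 75 labelled samples. The series asks for a transcript catalogue of local Chinese pigs. All animals were adult males aged 12 months. The short-read livers were 4 from pigs whose titles carry the code BS and 4 from pigs coded DSE, each with 1 library per organ, and the long-read livers were 1 from each code. Another code, DT, with 4 labelled short-read livers, was not analysed here, and the meaning of the codes is not given in the labels. RNA was extracted with Trizol and then acid phenol, ribosomal RNA was removed before Illumina sequencing only, and the long reads came from PacBio IsoSeq, which reads transcripts from end to end. No label gives a treatment, and none says that libraries with the same number come from 1 animal, so p-values measure the spread between these samples.

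The liver makes most proteins of the blood plasma, among them albumin, the clotting factors, much of complement and the apolipoproteins that carry lipid. Its hepatocytes also turn ammonia into urea, make glucose and bile acids, and oxidise and conjugate foreign compounds with cytochrome P450 and transferase enzymes. Hepatocytes near the portal vein and near the central vein divide this work, and bile duct cells, stellate cells, sinusoidal endothelium and resident macrophages, the Kupffer cells, share the organ with them.

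Short-read levels are in TPM, the standard transcript abundance unit, a share of a library that corrects for transcript length. Their depth is unknown. The label was checked against 3 defining genes. Albumin (ALB) lay between 36487 and 88171 TPM in the 8 livers, and its highest value in the 32 other libraries was 39.2 TPM. APOH, the phospholipid-binding beta-2-glycoprotein, lay between 3508 and 7162 TPM in liver and reached at most 2.94 TPM elsewhere. AHSG, the plasma protein fetuin-A, lay between 2091 and 4276 TPM in liver and reached at most 4.08 TPM elsewhere. All 3 fitted the label in every liver library, with no overlap. On log2(TPM + 1), each liver had a median correlation with the other livers of 0.963 to 0.974, and its highest correlation with a library of another organ was 0.752 to 0.772, as a description over genes of libraries that share a protocol.

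Markers of other organs were low in the livers beside their own organ, and BS liver replicate 4 stood apart for heart muscle. The summed level of 15 heart muscle genes was 12.3 to 32.5 TPM in 7 livers and 492 TPM in BS liver replicate 4, against a median of 84920 TPM in heart. The 13 measured kidney epithelium genes summed to at most 0.363 TPM in any liver, with 4 of them listed at 0 in all livers. The 10 lung epithelium genes summed to at most 125 TPM in a liver. Their liver median of 54.2 TPM was above the medians of spleen (13.5 TPM), kidney (7.19 TPM) and heart (1.37 TPM), against 54734.5 TPM in lung. The 6 red-cell genes summed to values from 81.3 TPM in BS liver replicate 3 to 1891 TPM in BS liver replicate 4. Their part in the results below was not tested. Leaving out BS liver replicate 4 was one of 40 runs that each left out a library, and over these the count of liver-enriched genes ranged from 353 to 366.

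Liver RNA was concentrated in few genes. The 10 most abundant nuclear genes held 26.3% ± 2.28 of nuclear TPM in liver (SD, n = 8), against 15.1% in heart, 14.6% in lung, 14.2% in spleen and 10.5% in kidney. The lowest liver, at 23.3%, was above the highest library of any other organ, 17.1% in spleen. In each of the 4 comparisons the exact permutation test (two-sided, Benjamini-Hochberg adjusted over 4) gave 0.000155, the smallest value that 8 against 8 allows. Between 49 and 98 genes were enough to reach 50 percent of nuclear TPM in a liver (median 71.5), whereas the median was 130 in heart, 160 in spleen, 252 in lung and 374.5 in kidney. With albumin left out the liver share was still 22.4% ± 3.23. At least 1 TPM was reached by 11237 to 12030 genes per liver. The mean difference from heart was -261.5 genes (exact permutation test, adjusted p = 0.0274) and from lung -2761 genes (exact permutation test, adjusted p = 0.000207). The heart difference failed the test at a limit of 0.5 TPM, where it was -201.75 genes (exact permutation test, adjusted p = 0.0685), and also without the libraries numbered BS 3 (-250.4), BS 4 (-219.1), DSE 1 (-244.6) or DSE 3 (-247.6).

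TPM is a share, so very abundant genes of a library lower the values of its other genes. Their part in the shifts given next was not tested. The median log2 difference of liver over all tested genes was -0.02 from heart, -0.69 from kidney, -1.11 from lung and -0.86 from spleen. Differences are given on log2(TPM + 1) from limma, which understates the change of low genes. A second scaling, which sets the median ratio of genes between libraries to 1, brought these shifts to between -0.03 and 0.02. Named genes that lose an enriched or depleted call under it are marked.

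A gene was called liver-enriched where liver stood at least 4-fold above each of the 4 other organs and the largest of the 4 p-values passed an adjusted p of 0.05 in limma. This held for 362 genes, 2.2% of the 16481 tested. In 330 of them every liver was above every library of the 4 other organs, a pattern seen in 478 tested genes in all. All 362 also passed under the median-ratio scaling, which called 554 (3.41%). Their median level in liver was 104 TPM, with 185 at 100 TPM or more, and in 75 the smallest of the 4 differences was over 100-fold. Kidney was the organ with the next highest mean for 169 of them, lung for 105, spleen for 50 and heart for 38. Together they held 44.7% ± 3.69 of TPM in liver (SD, n = 8), with 40.6% in the lowest and 51.3% in the highest library, a share described and not tested because these genes were chosen for being high in liver. In the other organs the mean share was 0.948% in kidney, 0.543% in lung, 0.208% in spleen and 0.0901% in heart. In bulk tissue, fewer cells of a type and less RNA per cell cannot be told apart.

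**Figure D1:**
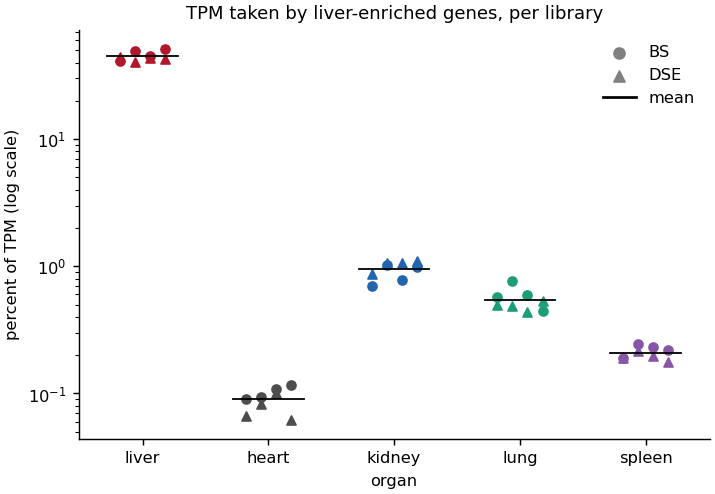
Percent of TPM (log scale) in the 362 liver-enriched genes, 1 point per library (circles BS, triangles DSE), with the mean of 8 libraries as a line for each organ. The livers sit between 40.6% and 51.3%, and the highest library of another organ, a kidney, is at 1.09%.

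The largest differences belonged to plasma proteins and hepatocyte enzymes. ALB (chromosome 8, 69531487 to 69721696, build susScr11) stood 13.36 ± 0.51 (SE) log2 units above heart, the nearest organ (limma, adjusted p = 1.03e-22). APOH on chromosome 12 (12827195 to 12839175) followed, 11.80 ± 0.22 above kidney (limma, adjusted p = 2.68e-32). PLG, whose product plasminogen dissolves clots, ranged only from 1785 to 2274 TPM over the 8 livers, while no other library passed 0.816 TPM. SERPINA1, the antitrypsin gene, lay between 1282 and 2685 TPM in liver, with at most 6.01 TPM elsewhere. TDO2, which opens the ring of tryptophan, lay between 549 and 1234 TPM in liver and reached 0.663 TPM elsewhere. All of these left a wide gap between the lowest liver and the highest other library. CPS1, the first enzyme of the urea cycle, varied more among livers, from 369 to 1464 TPM, against at most 0.5 TPM in any other organ. LECT2, a secreted hepatocyte protein, lay between 634 and 1235 TPM and reached 1.01 TPM elsewhere. NNMT, which methylates nicotinamide, spanned 379 to 2262 TPM in liver, with 3.96 TPM as the highest value elsewhere.

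After ALB, the most abundant genes with a symbol were APOC3, FGB, APOE and FGG. APOC3, an inhibitor of triglyceride clearance, lay between 27308 and 35525 TPM in liver, and kidney was next with 368 to 1317 TPM. FGB and FGG, the beta and gamma chains of fibrinogen, had liver medians of 15927 and 12037 TPM. APOE had a liver median of 14497 TPM and a second site in lung, at 705 to 2686 TPM, where its difference from liver was 3.59 ± 0.27 log2 units (SE; limma, adjusted p = 1.17e-14). The iron carrier TF lay between 4873 and 10907 TPM, and the thyroxine and retinol carrier TTR between 5583 and 10886 TPM. MT1X, a metallothionein that binds zinc and copper, spanned 2763 to 13202 TPM in liver and 466 to 2020.4 TPM in kidney. It lies beside near-identical copies, and how the authors' counting divided reads among them is not stated, so its level is uncertain.

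Of 29 gene lists with 397 measured genes, those of hepatocyte genes and plasma carrier proteins had the highest medians. Lists are described by counts and by the median log2 difference of their measured members from the mean of the 4 other organs, beside a median of -0.13 over all 29777 genes without a filter. Of 17 measured hepatocyte genes 15 were enriched and the other 2 were shared with kidney (median 9.41). All 16 measured plasma carrier proteins were liver-enriched (median 9.31), and all passed the filter on low values. They included HPX, the carrier of free haem, at 3023 to 6114 TPM in liver and at most 107 TPM in kidney. Among 17 measured genes of apolipoproteins and lipoprotein assembly 16 were enriched (median 7.38). The exception, APOM, met the 4-fold rule in both liver and kidney against the remaining organs. APOB, the backbone of very low density lipoprotein, lay between 1008 and 1635 TPM in liver and reached 18.3 TPM in 1 kidney. APOA1, the main protein of high density lipoprotein, lay between 4458 and 6732 TPM, against 202 TPM at most elsewhere.

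Clotting and complement genes split between hepatocyte products and genes of other sources. In coagulation and fibrinolysis 15 of 25 measured genes were enriched and 1 depleted (median 6.24), and under the median-ratio scaling 19 were enriched and none depleted. F2, which encodes prothrombin, had a liver median of 372 TPM and stood 3.60 ± 0.10 log2 units above kidney (SE; limma, adjusted p = 1.18e-26). SERPINC1, the antithrombin gene, lay between 1846 and 2504 TPM, against at most 23.5 TPM elsewhere. KNG1, which encodes kininogen, lay between 510.4 and 889 TPM in liver and 277 and 501 TPM in kidney, and met the shared rule described below. The depleted member was PLAT, a plasminogen activator of vessel walls, at 0.447 to 1.64 TPM in liver and 6.19 TPM or more everywhere else, and it lost this call under the median-ratio scaling. The endothelial factor VWF averaged 1.93 TPM in liver.

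Of 23 measured complement genes 11 were enriched (median 4.55), or 16 under the median-ratio scaling. C3, the hub of the cascade, lay between 2232 and 3380.5 TPM in liver and 303 and 458 TPM in lung, its next organ. CFB, the factor B of the alternative pathway, lay between 1113 and 1500.3 TPM in liver, with up to 186 TPM in lung. C9, a part of the membrane attack complex, had a liver median of 1007 TPM. C5 missed the 4-fold rule, since lung reached 625 TPM against 355 to 656 TPM in liver, although it passed under the median-ratio scaling (smallest difference 2.51). C4BPA, a fluid-phase inhibitor listed under several identifiers of which the most abundant was used, was higher in spleen, at 909 to 5951 TPM, than in liver, at 313 to 567 TPM. Another identifier of C4BPA ran the other way, as it met the rule for genes shared with lung described below, with a liver mean of 471 ± 97.8 TPM and a lung mean of 200.3 ± 78.3 TPM (SD, n = 8), each at least 4-fold above spleen. How reads were divided between the identifiers is not stated, so the level of C4BPA is uncertain. C7 averaged 0.107 TPM in liver.

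Acute phase genes were enriched in 10 of 12 measured members (median 7.21), and they varied among livers. CRP, the C-reactive protein, spanned 156 to 1504 TPM in liver against 0.687 TPM at most elsewhere. ITIH4, a major acute phase protein of the pig, spanned 844 to 6144 TPM, and HAMP, the iron hormone hepcidin, 19.5 to 212 TPM. No liver value of these 3 overlapped another organ.

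**Figure D2:**
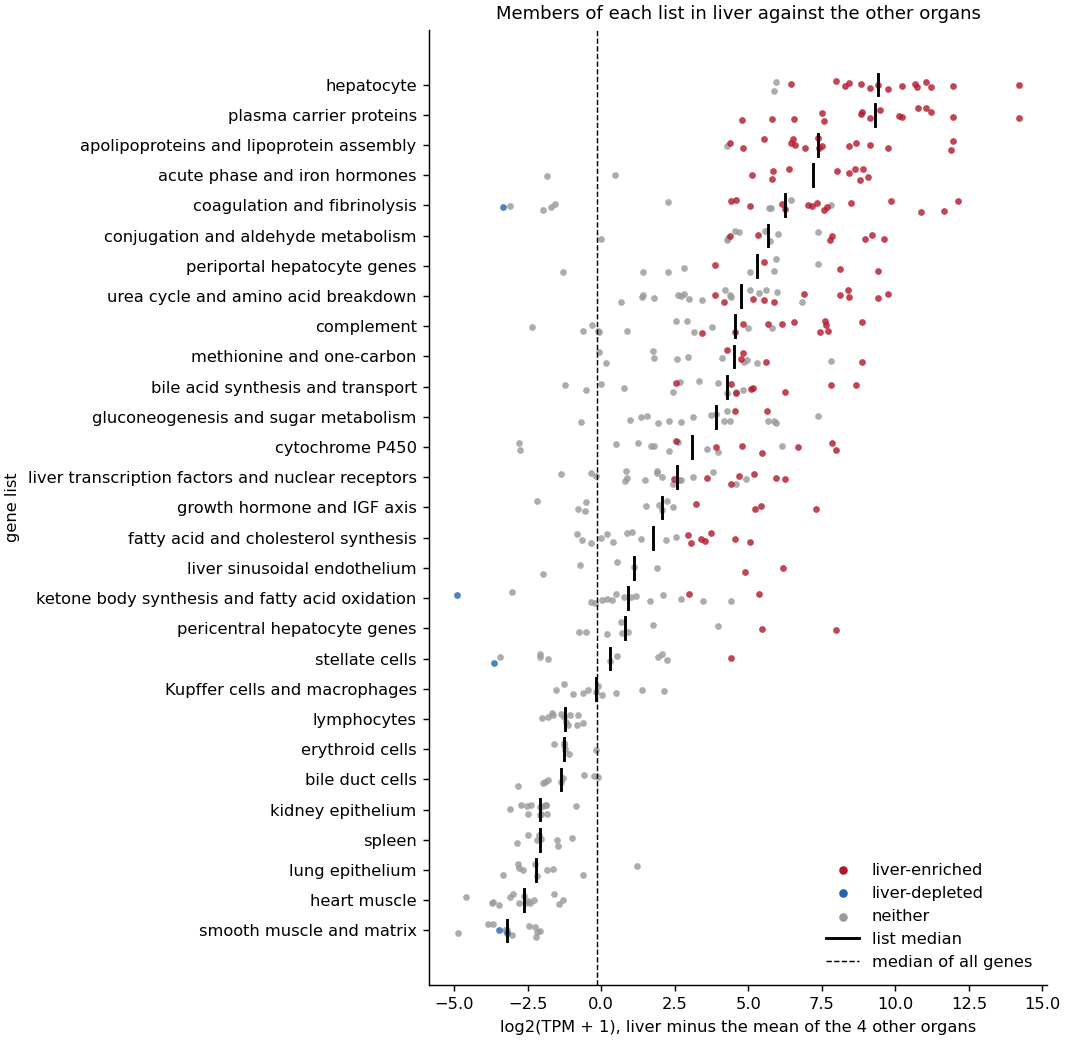
Log2(TPM + 1) difference of liver from the mean of the 4 other organs (horizontal axis) for the measured members of 29 gene lists (vertical axis), coloured by call, with each list's median as a bar and the median of all genes, -0.13, as a dashed line. List medians run from 9.41 for hepatocyte genes to -3.19 for smooth muscle and matrix.

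Drug and bile acid metabolism showed liver-enriched genes beside genes shared with lung or kidney. Of 18 measured cytochrome P450 genes 7 were enriched (median 3.09), of which 17 passed the filter. CYP2E1, which oxidises ethanol, stood at 743 TPM in BS liver replicate 4 and at 1787 to 2408 TPM in the other 7 livers, and elsewhere it reached 11.3 TPM. CYP1A2, which clears caffeine, lay between 26.9 and 136 TPM in liver and reached 3.14 TPM elsewhere. CYP27A1, of the alternative bile acid route, lay between 397 and 557 TPM, well above its 74.7 TPM in kidney. CYP8B1, which makes cholic acid, was low and uneven, from 0.268 to 19.6 TPM. CYP7A1, whose step limits the rate at which cholesterol becomes bile acid, ranged from 1.61 TPM in BS liver replicate 4 to 416 TPM in BS liver replicate 3, and lung, at 64.5 to 191 TPM, lay inside that range. Family members with close copies can share reads, so single P450 values are uncertain. Full-length reads of CYP7A1 numbered 229 and 157 in the BS and DSE livers, 282 and 153 in the lungs, and 0 in the other organs.

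The bile acid list held 8 enriched genes of 19 measured (median 4.29). The 2 hepatocyte transporters, SLC10A1 for uptake and ABCB11 for export into bile, lay between 84.4 and 150.3 TPM and between 37.5 and 155 TPM in liver, with no overlap with other organs. SLC51A, a subunit of the basolateral bile acid exporter, stayed at 0.0613 to 0.175 TPM in liver against 24.7 TPM or more in kidney. BAAT joins bile acids to glycine or taurine. The identifier with this symbol was listed at 0 in 7 livers and at 0.0555 TPM in DSE liver replicate 1. Whether this identifier covers the expressed gene was not tested, so the level of BAAT is uncertain.

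Conjugation and aldehyde genes were enriched in 7 of 16 measured members, and 14 were either enriched or shared with kidney (median 5.65). SULT2A1, a sulfotransferase of steroids and bile acids, lay between 123 and 578 TPM in liver and reached 0.824 TPM elsewhere. ADH4, an alcohol dehydrogenase, lay between 163 and 1011 TPM against 0.508 TPM. AOX1, an aldehyde oxidase, overlapped with kidney, at 70.0 to 173 TPM in liver and up to 93.9 TPM in kidney, and was called enriched only under the median-ratio scaling (smallest difference 2.39).

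Nitrogen and glucose metabolism were divided between liver and kidney. Among 28 measured genes of the urea cycle and amino acid breakdown 11 were enriched and 24 were either enriched or shared with kidney (median 4.74). OTC on chromosome X (34322298 to 34391821), the second enzyme of the cycle, lay between 169.9 and 479.5 TPM in liver and reached 0.325 TPM elsewhere. ASS1, the next enzyme, overlapped with kidney, with 914 to 2384 TPM in liver and 1556 to 2785 TPM in kidney, a difference of -0.46 ± 0.23 (SE; limma, adjusted p = 0.07). ASL differed by -0.08 ± 0.13 between the same organs (SE; limma, adjusted p = 0.57). ARG1, which releases urea, was again a liver gene, at 299 to 947 TPM, with up to 112 TPM in 1 spleen. CPS1, OTC and ARG1 were thus liver-enriched, while ASS1 and ASL were at least 3.67 log2 units above heart, lung and spleen and did not pass the test against kidney.

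The methionine list behaved likewise, with 5 of 16 measured genes enriched and 6 shared with kidney (median 4.51). MAT1A, which makes S-adenosylmethionine, lay between 336 and 843 TPM in liver and reached 1.11 TPM elsewhere. BHMT, which returns homocysteine to methionine, lay between 733 and 1821 TPM in liver and between 72.0 and 1569 TPM in kidney, with no more than 0.512 TPM in the 3 remaining organs.

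For glucose, only 2 of 19 measured genes were enriched, and 13 were shared with kidney (median 3.90). Under the median-ratio scaling 5 were enriched. PCK1, the entry enzyme of gluconeogenesis, lay between 279.6 and 1059 TPM in liver and between 3773 and 6816 TPM in kidney, a log2 difference of -2.97 ± 0.23 (SE; limma, adjusted p = 8e-14). In the same limma comparison the difference of FBP1 was -1.19 ± 0.18 (adjusted p = 2.4e-07) and that of G6PC1, which frees glucose, -1.35 ± 0.28 (adjusted p = 4.3e-05). In TPM, liver and kidney did not overlap for PCK1 and FBP1. They overlapped for G6PC1, at 86.2 to 763 TPM in liver and 359.6 to 1907 TPM in kidney. The differences of FBP1 and G6PC1 from kidney, like those of ASS1 and ASL, depend on the scaling. The median over all tested genes was -0.69 from kidney here and 0.02 under the median-ratio scaling.

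Lipid genes gave lower medians. Among 18 measured genes of ketone body synthesis and fatty acid oxidation 2 were enriched and 1 was depleted (median 0.90). OXCT1, which uses ketone bodies and is known to be scarce in liver, was the depleted member, at 1.49 to 5.36 TPM in liver and at 24.8 TPM or more in every other library. Of 18 measured genes of fatty acid and cholesterol synthesis 7 were enriched (median 1.78). ELOVL6, which lengthens fatty acids, spanned 11.9 to 244 TPM in liver, against 15 TPM at most elsewhere. FASN and ACACA, the enzymes that build palmitate, had liver medians of 11.4 and 6.63 TPM and did not differ from the mean of the 4 organs beyond their error (limma, -0.36, adjusted p = 0.0731 and -0.02, adjusted p = 0.855). Both signs turned under the median-ratio scaling, to 0.55 and 0.84.

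Of 24 measured transcription factors and nuclear receptors of the liver 7 were enriched and 6 shared with kidney (median 2.56). HNF4A, a central regulator of hepatocyte genes, lay between 77.5 and 159 TPM in liver and between 102 and 248 TPM in kidney. FOXA1 and FOXA2, which open liver chromatin in development, were shared with lung instead, FOXA2 at 6.57 to 24.9 TPM in liver and 10.8 to 21.8 TPM in lung. NR1I3, the xenobiotic receptor CAR, was enriched, at 49.6 to 100.3 TPM against 18.1 TPM at most elsewhere, as was ATF5, a stress factor, at 436 to 1014 TPM against 20.5 TPM.

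In the growth hormone axis 4 of 13 measured genes were enriched (median 2.06), or 7 under the median-ratio scaling. GHR, the growth hormone receptor, lay between 51.8 and 137 TPM in liver and reached 47.6 TPM elsewhere, and was among those added by that scaling (smallest difference 2.15). IGF1, its main target, was not called, at 5.21 to 31.7 TPM in liver and 3.39 to 15.6 TPM in heart. IGFALS, which keeps IGF1 in the circulation, was enriched, at 15.2 to 48.5 TPM against 8.98 TPM elsewhere.

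Genes used as markers of hepatocyte zones followed different organs. Of 12 measured periportal genes 4 were enriched and 5 shared with kidney (median 5.29), and of 10 measured pericentral genes 2 were enriched, CYP2E1 and CYP1A2 (median 0.82). Lists of the other liver cells held fewer enriched genes than the hepatocyte list. In the sinusoidal endothelium list 2 of 7 measured genes were enriched (median 1.12, or 2.01 under the median-ratio scaling). Its members STAB2, FCN3, FCGR2B and CD36 were not found by symbol. The 2 enriched genes were CLEC4G and OIT3. CLEC4G, a lectin of these cells, lay between 121 and 180.3 TPM in liver and reached 39.7 TPM in spleen. OIT3 lay between 27.3 and 72.8 TPM in liver. LYVE1 of the same list was lower in liver, at 18.4 to 46.7 TPM, than in lung, at 86.8 to 299 TPM. No Kupffer cell or macrophage gene of 11 measured was enriched (median -0.18, which turned to 0.74 over tested members under the median-ratio scaling), and CD163, a scavenger receptor, lay between 71.3 and 145 TPM in liver against 256 TPM or more in spleen. The 9 bile duct genes had a median of -1.38, and KRT19 lay between 1.1 and 5.47 TPM in liver. Of 11 stellate cell genes COLEC11 was enriched and DCN depleted (median 0.31), and under the median-ratio scaling 3 were enriched and none depleted. LRAT, which stores vitamin A in these cells, stood at 1.64 to 5 TPM in liver, above the 0.925 TPM reached elsewhere, and was called enriched only under the median-ratio scaling (smallest difference 2.23).

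Compared with single organs, liver was at least 2-fold higher than heart in 2540 genes (15.4%) and lower in 2844 (17.3%). Against kidney 1084 genes were higher (6.58%) and 5657 lower (34.3%). Against lung 1265 were higher (7.68%) and 8983 lower (54.5%), and against spleen 1607 (9.75%) and 7357 (44.6%). Under the median-ratio scaling the split was 3089 (19%) and 2941 (18.1%) for heart, and 2343 (14.4%) and 2239 (13.8%) for kidney. It was 3092 (19%) and 3276 (20.2%) for lung, and 3182 (19.6%) and 2862 (17.6%) for spleen.

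A gene counted as shared with a partner organ where liver and that partner each stood at least 4-fold above the 3 remaining organs. Liver shared 279 genes with kidney (1.69%), 34 with lung (0.206%), 13 with spleen (0.0789%) and 7 with heart (0.0425%). Under the median-ratio scaling they were 339 (2.09%), 32 (0.197%), 19 (0.117%) and 18 (0.111%). These 4 counts share the liver libraries and were not tested against each other. Of the 279, 58 were also liver-enriched, 88 were at least 2-fold higher in liver than in kidney and 64 at least 2-fold lower. GLYAT, which joins benzoate and other acids to glycine, was among them at 628 to 1219 TPM in liver and 485 to 916 TPM in kidney, a difference of 0.40 log2 units (limma, adjusted p = 0.00965).

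With lung, SEC14L3, a lipid-binding protein, lay between 47.9 and 291 TPM in liver and between 201 and 294 TPM in lung, and GPLD1, which cleaves membrane anchors, between 23.4 and 61.1 TPM in liver and 75.9 and 172 TPM in lung. SCGB1A1, the club cell secretoglobin, met the rule although its liver values, from 2.17 to 121 TPM, were far under the 8564 to 50093 TPM of lung, a liver minus lung difference of -9.31 log2 units (limma, adjusted p = 3.96e-21). The lung surfactant gene SFTPC, in contrast, was at 0.0633 to 2.35 TPM in liver and at 13899 TPM or more in lung. With heart, the shared genes were TUBA8, CA14, MASP1, PPP1R3C, GATA4, HJV and VTN. MASP1, a protease of the lectin pathway of complement, lay between 16.3 and 24.6 TPM in liver and between 10.5 and 33.1 TPM in heart, a difference of -0.03 ± 0.17 (SE; limma, adjusted p = 0.92). PPP1R3C, which directs phosphatase to glycogen, had a liver median of 52.5 TPM and 168 TPM or more in heart. With spleen, CLEC4F, a lectin of Kupffer cells in rodents, lay between 5.9 and 41.8 TPM in liver and 2.98 and 42.3 TPM in spleen, and LTC4S, which makes leukotriene C4, between 63.2 and 145 TPM and 98.4 and 209 TPM.

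**Figure D3:**
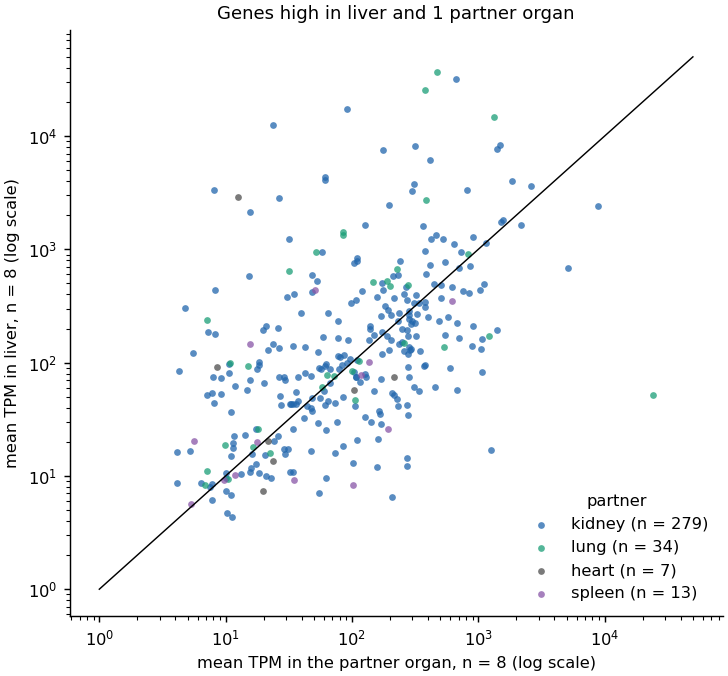
Mean TPM in liver (vertical, log scale) against mean TPM in the partner organ (horizontal, log scale; 8 libraries each) for genes shared with kidney (279), lung (34), spleen (13) and heart (7), with the line of equal level. Kidney-shared genes lie on both sides of the line, and the lung point far below it is SCGB1A1, at 24067 TPM in lung.

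Liver-depleted genes, at least 4-fold below each other organ, numbered 123 (0.746%). In 115 of them every liver was below every other library, a pattern seen in 1800 tested genes. The median-ratio scaling kept 25 of the 123 (0.154% of genes tested) and called no others. Those named by fold were CLIC5, PKIA, ACSS1, OXCT1, PKM and FABP5, and all 6 were among the 25. CLIC5, an intracellular chloride channel protein, lay between 0.568 and 3.08 TPM in liver and at 44.4 TPM or more elsewhere. PKIA, an inhibitor of protein kinase A, lay between 0.945 and 2.71 TPM, and elsewhere at 16.2 TPM or more. ACSS1, which activates acetate in mitochondria, lay between 1.14 and 3.79 TPM in liver, a log2 difference of -3.65 ± 0.10 from lung, the nearest organ (SE; limma, adjusted p = 1.29e-26). FABP5, a fatty acid carrier, reached 34.5 TPM in BS liver replicate 1, with a median of 7.91 TPM, and was at 70.2 TPM or more elsewhere. The matrix genes COL4A1, SPARC and DCN were also called depleted, at 9.94 to 23.7, 25.6 to 45.2 and 7.81 to 22.6 TPM in liver, and these 3 calls did not hold under the median-ratio scaling.

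Paired enzymes, where 1 gene is known as the liver form, were compared within each library, so that the scaling of the library cancels. Of 15 pairs the liver form exceeded its partner in all 8 livers in 13. For 4 pairs this was so in every liver and in none of the 32 other libraries: PKLR over PKM, GYS2 over GYS1, MAT1A over MAT2A, and FABP1 over FABP3. PKLR, the liver pyruvate kinase, made up 51.2% to 80.5% of the pair in the livers, at 24.1 to 62.4 TPM, and PKM stood at 9.66 to 30.3 TPM there, against 122 TPM or more elsewhere. GYS2, the liver glycogen synthase, made up 89.1% to 98.2% of its pair. FABP1, the liver fatty acid binding protein, lay between 2764 and 5462 TPM and made up at least 99.5%. In 2 pairs the partner form, PKM or SLC25A12, was called liver-depleted, and of these only PKM kept the call under the median-ratio scaling.

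Several pairs differed from this pattern. The liver form also led in all 8 kidneys in 7 pairs, in all lungs in 6, in all spleens in 6 and in all hearts in 2. PCK1 exceeded PCK2 in 7 of 8 livers. LDHA exceeded LDHB in 7 of 8, but the identifier with the symbol LDHB, on chromosome 2 (12988755 to 12990035), was at 0.211 TPM in BS liver replicate 1 and near 0 in single libraries of other organs too, so this pair is uncertain.

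**Figure D4:**
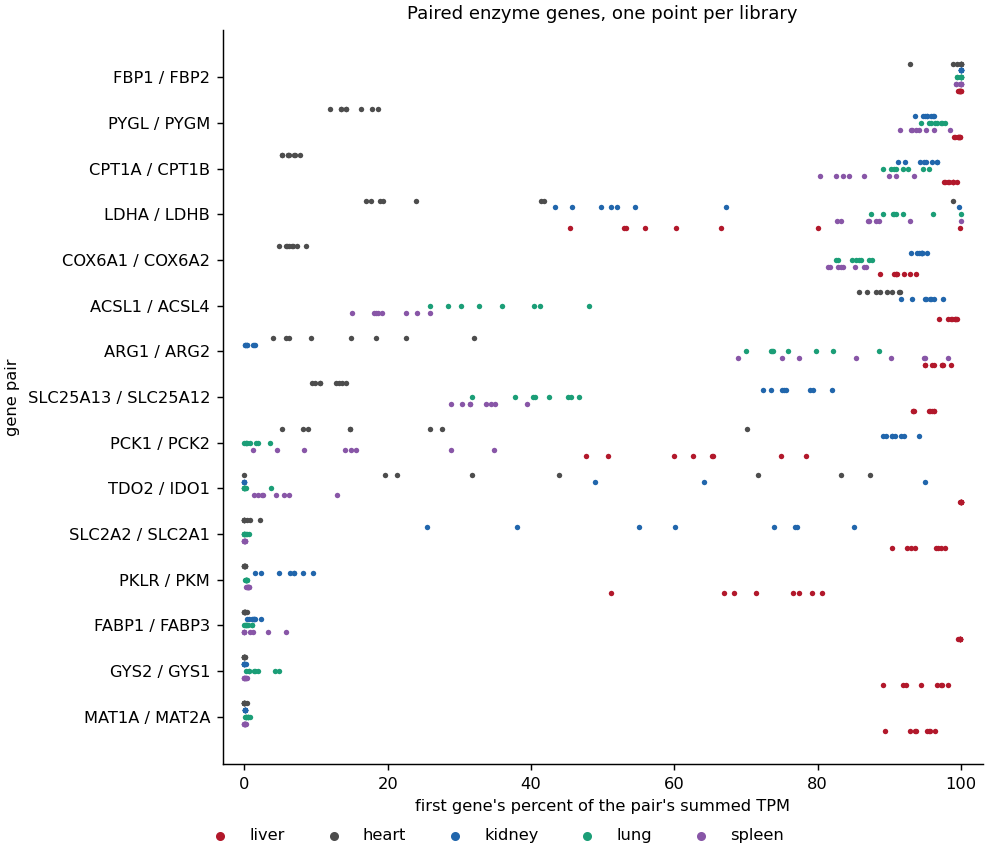
Percent of the summed TPM of a gene pair held by the first gene (horizontal axis) for 15 pairs (vertical axis), 1 point per library, coloured by organ. Livers lie at the right for most pairs, and they spread from 47.7% to 78.4% for PCK1 and PCK2.

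Among the 8 livers, the enriched genes with the widest spread were CA3, CYP1A1, PON3, CYP4F3, IGFBP1 and ACSM5. CA3, a carbonic anhydrase, ranged from 0.235 TPM in BS liver replicate 4 to 95.8 TPM in DSE liver replicate 3. CYP1A1, which ligands of the aryl hydrocarbon receptor induce, stood at 1.32 and 5.53 TPM in DSE liver replicates 1 and 3 and at 41.6 to 96.1 TPM in the other 6. IGFBP1, an insulin-repressed binding protein, ranged from 19.1 TPM in BS liver replicate 2 to 462 TPM in DSE liver replicate 2. CYP4F3, which inactivates leukotrienes, stood at 2.21 to 2.90 TPM in 3 livers and at 18.5 to 41.0 TPM in the other 5, with both codes on each side. PON3 ranged from 5.38 TPM in BS liver replicate 1 to 177 TPM in DSE liver replicate 2.

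The liver contrast differed between the pig groups in few genes. It was at least 2-fold higher in BS for 48 genes (0.291%) and in DSE for 33 (0.2%), and without BS liver replicate 3 these counts were 77 and 71. Under the median-ratio scaling they were 53 (0.327%) and 59 (0.363%). SLC51B, a bile acid exporter subunit, lay between 10.7 and 25.9 TPM in the BS livers and 0.819 and 3.48 TPM in the DSE livers, an interaction of 3.19 log2 units. EGLN3, an oxygen-sensing hydroxylase, lay between 4.57 and 18.5 TPM in BS and 0.597 and 4.46 TPM in DSE livers (2.43). MARCO, a macrophage scavenger receptor, lay between 4.81 and 112 TPM in BS and 0.787 and 5.62 TPM in DSE livers (2.50). SCGB1A1 ran the other way, at 2.17 to 53.3 TPM in BS and 46.7 to 121 TPM in DSE livers (-2.77). The first pair did not overlap between the codes and the last pair did. The call was lost for MARCO and SCGB1A1 with a pseudocount of 0.1 TPM, at an adjusted p of 0.095 and 0.158 in limma, and for SCGB1A1 without BS liver replicate 1, BS liver replicate 3 or DSE liver replicate 1 (interactions -2.30, -2.07 and -2.55).

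Liver-enriched genes lay near one another in the genome. Of 352 enriched genes with a single identifier 147 (41.8%) had another enriched gene within 100 kb, against 7.77% of 16259 tested genes. They formed 7 runs of 4 or more, with 38 genes. The APOA5, APOC3, APOA4 and APOA1 run on chromosome 9 (44178606 to 44218713, susScr11) summed to 38610 ± 2934 TPM in liver (SD, n = 8). A run of 8 serpin-region genes on chromosome 7 (115799438 to 115987453), with SERPINA5 at one end and SERPINA3-2 at the other, summed to 31146 ± 9633 TPM, and a run of 3 on chromosome 8 (74553105 to 74614824), with FGG and FGB at its ends, to 38750 ± 12665 TPM. Members of such runs include recent copies, among which reads may have been split. Enriched genes had a median span of 17.2 kb and 8 exons, against 23 kb and 9 exons in tested genes and 32.6 kb and 10 exons in depleted ones.

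At the level of transcripts, 1058 of 43818 tested (2.41%) were liver-enriched by the same rule, and 1620 (3.81%) under the median-ratio scaling. Of the 1058, 907 belonged to liver-enriched genes and 151 to 108 genes that were not. ST6GAL1, the sialyltransferase that caps plasma glycoproteins, was among the 108. The gene as a whole averaged 294.8 ± 52.1 TPM in the livers. Lung was next, with a mean of 76.5 ± 11.6 TPM (SD, n = 8). ST6GAL1 thus lay close to the 4-fold limit, and its call under the median-ratio scaling is not given here. Its transcript PB.16028.36, known from long reads (chromosome 13, 124791442 to 124837842, 6 exons), held 22.7% to 64.4% of the gene's TPM in the livers and at most 3.18% in any other library. The long reads placed 727 and 222 full-length reads of it in the BS and DSE livers and 1 read in all other organs. BHMT gave a smaller case, as its transcript PB.3355.2 held 7.66% ± 4.36 of the gene in liver (SD, n = 8) and 0.0401% in kidney, where the gene itself was shared. The gene BHMT was called enriched under the median-ratio scaling, where it just passed the 4-fold rule.

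Usage, the percent of a gene's TPM held by 1 transcript, was tested for genes that averaged 5 TPM or more in all organs. Liver differed from each other organ by at least 20 percentage points for 105 of 13526 transcripts (0.776%), 61 used more and 44 used less, in 69 of 4993 genes (1.38%). Of the 69 genes 5 were liver-enriched, beside 2.2% of the 16481 genes tested for level. The limit of 5 TPM in every organ leaves out genes found in liver alone. The count of 5 is thus a description and no sign that usage and level are separate. With genes of at least 1 TPM in every organ 181 transcripts in 125 genes were called, and with BS libraries alone 66. Among the called transcripts 17.1% overlapped exons of another gene, against 16.6% of those tested, and reads of such overlaps cannot be told apart without strand.

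By short reads, C7orf50, STAT2 and GRAMD2B showed a change of first exon. In C7orf50 the transcript ENSSSCT00000085913, whose first exon lies on chromosome 3 at 662351 to 662486, held 82.3% to 94.6% in the livers and at most 1.96% elsewhere (limma, adjusted p = 6.88e-26). The form with a first exon at 745220 to 745285 held 5.4% ± 1.88 in liver and 39.4% to 62.4% on average in the other organs. In GRAMD2B, which encodes a lipid-binding membrane protein, ENSSSCT00000060056 held 85.0% ± 3.69 in liver against 22.2% ± 6.13 in kidney, the next organ. Its counterpart PB.3599.5, which starts at a later exon on chromosome 2 (129549740 to 129550040), had 1 full-length read in the livers and 137 elsewhere. STAT2, which carries interferon signals, had ENSSSCT00000000428 at 95.5% to 97.4% in the livers and at most 1.51% elsewhere. Its exons overlap those of IL23A on the other strand by 595 bases. Full-length reads of PB.6815.6, which has another first exon, numbered 87 and 27 in the BS and DSE livers and 437 elsewhere. With 114 reads it led the STAT2 forms in the livers. Short reads gave it 1.53% ± 0.33 of the gene there, so the 2 measurements differed for STAT2 in liver. A further form, PB.6815.30, had 95 full-length reads in the livers and none elsewhere.

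LZTFL1 and HSF2BP showed short forms without an annotated coding sequence. The transcript PB.15151.8 of LZTFL1, a regulator of ciliary transport, has 6 exons (chromosome 13, 28977502 to 28983445) and held 56.9% to 89.8% in the livers and at most 12.3% elsewhere. All 5 full-length reads of it came from the livers, but another form of the gene, PB.15151.6, had more there, 10, and 38 elsewhere. HSF2BP, a partner of a heat shock factor known from meiosis, had the 2-exon transcript PB.16568.5 at 63.8% ± 10.2 in liver, with 7 full-length reads in the livers and none elsewhere. In CYP2E1, ENSSSCT00000088500, which runs on into exons that overlap the antisense gene SYCE1, held 0.895% ± 0.612 in liver and 90.0% or more in every other library, where the gene averaged 5.80 to 8.64 TPM. ENSSSCT00000011795 held 92.3% ± 1.78 in liver.

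**Figure D5:**
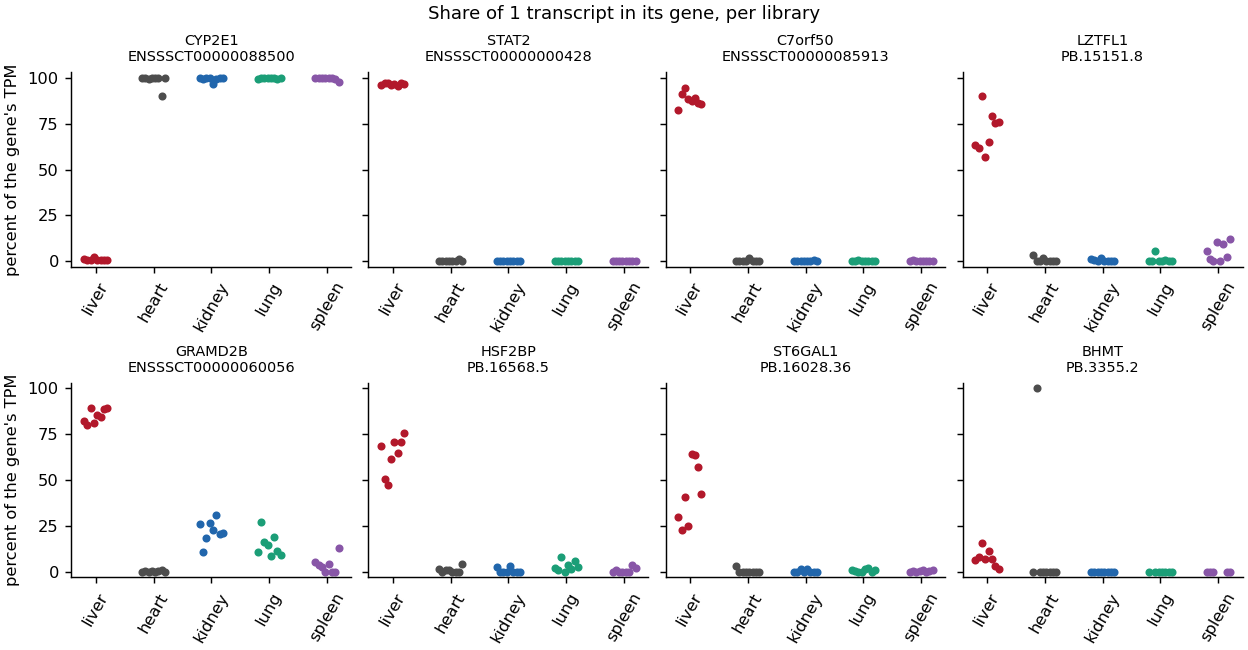
Percent of a gene's TPM held by 1 transcript (vertical axis) per library in each organ (horizontal axis) for 8 transcripts. In 6 panels the livers lie above all other libraries, CYP2E1 shows the reverse with the livers at 2.36% or less, and in BHMT 1 heart library of a gene near 0 TPM reads 100%.

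Full-length reads gave a second measurement of the same contrast, with 1 library per organ and code and 282770 and 216155 reads in the BS and DSE livers. Of 4110 genes tested in edgeR's quasi-likelihood test with pig group as a term, 187 were liver-enriched (4.55%) and 27 depleted (0.657%). DESeq2 called 108 and 14. Of the 362 genes enriched by short reads, 121 could be tested, and 179 had no full-length read in liver. Of the 121, 120 were called enriched. A gene with reads in liver alone can be tested only through them, so this count is described only. Full-length reads were scaled between libraries by a trimmed mean of ratios (TMM), while the short-read calls compared here rest on unscaled TPM. These overlaps are thus between calls made at unlike scalings. Under the median-ratio scaling short reads called 554 genes enriched and 25 depleted. Of 54 genes depleted by short reads that could be tested, 12 were called depleted. CLIC5, PKIA, OXCT1 and PKM were among these 12, and ACSS1, DCN, PLAT and SLC25A12 were not. The most abundant of the 187 genes with a symbol were ALB, at 11.2% and 18.7% of reads in the BS and DSE livers, TF with 8076 and 7479 reads, C3 with 5018 and 1686, FGB with 3856 and 2540, and A2M, a broad protease inhibitor, with 3657 and 1735. Short reads did not call 67 of the 187 genes enriched, A2M among them. By short reads A2M was shared with lung, with a mean of 912 TPM in liver and 824 TPM in lung. Its liver minus lung difference was 0.28 log2 units (limma, adjusted p = 0.435). APOC3, next after ALB among genes with a symbol by short reads, had 1505 and 2124 full-length reads. The 362 genes held 37.2% and 41.6% of full-length reads in the BS and DSE livers.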

How the data were processed

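The authors deposited gene and transcript levels as TPM, which have the same sum in every library and hide the depth. Full-length reads were deposited as a count per transcript. Used here were 40 short-read and 10 long-read libraries. The submitters' processing notes name STAR 2.7.10a, Salmon 1.10.1 and the build susScr11 without saying what each did, and rtracklayer 1.58.0 produced the annotation, per the file headers. Whether counting used strand is not given in the sources used here. Columns whose names match no label (20 of genes, 20 of transcripts and 5 of full-length reads) were not used, and the DT samples were not analysed here.

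Differences were fitted with limma 3.58.1 (R 4.3.3) on log2(TPM + 1) for genes or transcripts that averaged 1 TPM or more in any organ, with Benjamini-Hochberg adjusted p of 0.05 over all features tested. Enrichment and depletion needed 4-fold in all 4 contrasts and single contrasts 2-fold. Transcript usage was tested with 0.5 TPM added, for genes of at least 5 TPM in every organ and usage of at least 5%. Full-length reads were tested with edgeR 4.0.16 after TMM scaling, and with DESeq2 1.42.0 as an alternative. They numbered 119623 to 456783 per library, of which 51.9% were assigned to genes by name, 35.9% by locus, and 3.16% with several and 9.10% with no gene were left out. Names of 155 transcripts were matched by identifier. Single values were compared by exact permutation tests. Summaries used Python 3.11.15, pandas 2.3.3 and numpy 2.4.6. The fits were tested on simulated data.

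Genes named were the 10 most enriched and 6 most depleted by their smallest fold at 10 TPM or more, the 8 most abundant, 4 per partner organ, the 6 most variable, 4 by pig group, the first 4 measured of each list and its depleted members, and the enzyme pairs. Transcripts named were 6 by usage and 4 enriched ones of other genes. Others were named after their values were seen. Mitochondrial, histone and immune receptor genes and genes without a symbol were passed over, and some genes and enzyme pairs are not reported here. The members, lists and pairs were chosen with earlier results of these data known. Alternatives were another pseudocount, filter or scaling, the mitochondrial genome left out, a replicate block, single pig groups and each library left out.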

Additional observations from a re-analysis of the deposited data

Results flagged for a closer look

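For the named genes and transcripts, though not for every list member, the 8 livers were checked for 1 library far from the rest. Dixon's criterion was used (0.526 of the range for 8 samples). This held for 23 of 179 groups of values. A rate of about 1 in 20 applies to independent groups with a normal spread. Some genes here were named for their spread and some vary together, so the 23 cannot be judged against that rate. BS liver replicate 1 was the distant library in 8 of them, BS liver replicate 4 in 8 and BS liver replicate 3 in 4.

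BS liver replicate 1 was highest for ELOVL6 (244 TPM), MARCO (112 TPM), FABP5 (34.5 TPM), PKM (30.3 TPM), OXCT1 (5.36 TPM), SPIC (1.77 TPM) and IDO1 (1.01 TPM), and lowest for TDO2 (549 TPM). BS liver replicate 4 was highest for the heart muscle genes TNNC1 (73.2 TPM), TNNT2 (65.4 TPM), MYL2 (47.1 TPM) and MYL3 (33.1 TPM), for FABP3 (13.4 TPM), for NNMT (2262 TPM) and for the usage of ENSSSCT00000088500 of CYP2E1 (2.36%), and lowest for CYP2E1 (743 TPM). BS liver replicate 3 was highest for CYP7A1 (416 TPM), PKLR (62.4 TPM), FASN (50.1 TPM) and SFTPD (4.70 TPM). In DSE livers, IGF1 was highest in replicate 3 (31.7 TPM), SFTPC in replicate 4 (2.35 TPM) and BAAT in replicate 1 (0.0555 TPM).

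The liver contrast differed between the pig groups in limma's interaction test for SLC51B (3.19 log2 units, BS minus DSE), MARCO (2.50), EGLN3 (2.43) and SCGB1A1 (-2.77), the 4 named by that test.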

How the results depend on the processing

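The median-ratio scaling moved most counts. It gave 554 enriched and 25 depleted genes, 1620 enriched transcripts, 18 genes shared with heart, 59 with a higher contrast in DSE, and higher and lower counts of 2343 and 2239 for kidney, 3092 and 3276 for lung, and 3182 and 2862 for spleen. A pseudocount of 0.1 TPM gave 486 depleted genes, 1639 enriched transcripts, and 13 and 64 genes shared with heart and lung. With the mitochondrial genome left out 198 genes were depleted and 4567 were lower than in heart. Usage calls numbered 66 with BS libraries only, and 181 transcripts in 125 genes with a gene mean of at least 1 TPM. For full-length reads DESeq2 gave 108 enriched and 14 depleted genes, reads of annotated transcripts alone 14 depleted, and the fit without pig group 7. At a limit of 0.5 TPM the liver minus heart difference was -201.75 genes (exact permutation test, adjusted p = 0.0685). Leaving out libraries gave -338.7 to -219.1 at 1 TPM, 41 to 77 genes higher in BS, 23 to 71 higher in DSE, and 13 to 32 depleted genes by full-length reads, with 13 and 14 without the BS and DSE liver. The causes were not tested.

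Signs turned under the median-ratio scaling for FASN (0.55), ACACA (0.84), SFTPD (0.040), SLC51B (0.31), COX6A1 (0.81) and LDHB (0.34), with a pseudocount of 0.1 TPM for SFTPD (1.09), with BS libraries only for ACACA (0.18) and SLC51B (1.09), and with DSE libraries only for SCD (-0.35). With libraries left out they also turned for ACACA without BS liver replicate 4 (0.049) or DSE liver replicate 2 (0.059; range -0.099 to 0.059), for SCD without DSE liver replicate 3 (-0.075; range -0.075 to 0.35) and for LDHB without BS liver replicate 1 (0.085; range -0.85 to 0.085).

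Libraries with the same number correlated by over 0.1 in 22 of 32 pairs (-0.066 to 0.350, median 0.134), and 23 of 32 correlated best with their own number, a hint from the data that a number marks an animal. The labels name no shared animal and 10 of 32 pairs fell short of 0.1, which had to be passed in each, so the fits did not use the numbers as pairs. With the replicate block 362 genes were enriched, 123 depleted, and 53 and 36 higher in BS and DSE. The replicate block left the liver minus heart difference at -261.5 genes (exact sign-flip test, adjusted p = 0.0313). Short-read depth is unknown, and 179 of the 362 enriched genes had no full-length read in liver.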

Other observations

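Of the 362 liver-enriched genes, 106 had no symbol in the files. By position on the RefSeq annotation of the same assembly, with at least 50% overlap both ways, 67 of them met 1 RefSeq gene and 33 of these carried a name. As a check, 215 of 247 enriched genes with a symbol known to RefSeq met the same symbol by position.

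The genes so placed include some of the most abundant of the liver. The gene at the place of HP, haptoglobin, which binds free haemoglobin (ENSSSCG00000002749, chromosome 6, 14980382 to 14988822), lay between 26856 and 46031 TPM in liver and reached 978 TPM in lung. A second entry lies inside it on the other strand (ENSSSCG00000050689), at 12826 to 43973 TPM, and their reads cannot be told apart without strand. The gene at SAA2, an acute phase serum amyloid (ENSSSCG00000052907), lay between 9637 and 24597 TPM, against 12.1 TPM at most elsewhere. The gene at FGA, the alpha chain of fibrinogen (ENSSSCG00000008998), lay between 3910 and 13677 TPM. At APOC2, the activator of lipoprotein lipase (ENSSSCG00000003086), liver values were 2037 to 3569 TPM.

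At ORM1, the acid glycoprotein orosomucoid (ENSSSCG00000005488), BS liver replicate 1 reached 4424 TPM against a median of 640.0 TPM. The gene at GULO, the last enzyme of vitamin C synthesis, which humans lack (ENSSSCG00000009667), lay between 10.9 and 79.3 TPM in liver and never passed 0.289 TPM elsewhere. At IGF2, a growth factor (ENSSSCG00000035293), liver lay between 181 and 378 TPM, above the 127 TPM reached in 1 heart.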
